A study of Mus musculus with 8 samples.

Results

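miR-153 was followed through small RNA libraries from MIN6B1 cells, a mouse insulinoma line used as a model of the pancreatic beta cell. Its members are all distinct read sequences annotated as mmu-miR-153-3p or mmu-miR-153-5p, the mature strands of 1 hairpin. They are 3 of the 11568 distinct sequences listed and 3 of the 652 mature miRNA sequences: 1 sequence of miR-153-3p and 2 of miR-153-5p. Cells received either a control plasmid or one encoding HENMT1ΔC-T6B, a fusion of an RNA methyltransferase and an Argonaute-binding peptide. After 4 h with the transfection complex and 24 to 72 h in regular medium, total RNA of each was left untreated or oxidized with sodium periodate. This gave 4 groups of 2 libraries each: non-oxidized control, oxidized control, non-oxidized methyltransferase and oxidized methyltransferase. All groups share the cell line and the transfection, and the transfected share of the cells is not given in the sources used here. The labels number the replicates but do not say that they came from separate cultures, so the p-values measure only the spread between these libraries, which may be technical.

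A miRNA is cut from a hairpin precursor, and 1 strand of the resulting duplex is usually kept by an Argonaute protein, which it guides to messenger RNAs through its seed, bases 2 to 8. Periodate destroys the 3′ end of ordinary small RNAs so that they cannot be ligated into a library. A methyl group on the last ribose, which a HENMT1-type enzyme adds, prevents this, so a small RNA that stays clonable after oxidation is read as methylated. The study uses this to follow small RNAs held by Argonaute proteins. miR-153 is a miRNA of neurons and endocrine cells. In the mouse its hairpin lies in Ptprn2, the gene of phogrin, a phosphatase-like protein of the membrane of insulin granules and other dense-core vesicles.

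The sequences are shown because the results turn on which strand, and which 3′ end, was read. Capitals in the read and mature sequences mark the seed (bases 2 to 8 from the 5′ end). In the hairpin they mark the reads of 22 nucleotides from each arm.

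miR-153-3p, 22 nucleotides, as read: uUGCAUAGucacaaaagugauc

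miR-153-5p, 22 nucleotides, as read: uCAUUUUUgugacguugcagcu

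miR-153-5p, 21 nucleotides, as read: uCAUUUUUgugacguugcagc

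miR-153-5p, RefSeq mature entry: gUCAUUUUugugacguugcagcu

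Mir153 hairpin, RefSeq: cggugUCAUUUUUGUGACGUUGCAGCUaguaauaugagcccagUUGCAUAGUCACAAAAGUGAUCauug

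The hairpin of 69 nucleotides is the only Mir153 entry of the RefSeq miRNA table (GRCm38.p6), at chr12:117250817-117250885 on the plus strand. By GENCODE M21 it lies in intron 19 of 22 of Ptprn2, on the strand of the gene, 2116 bases after the start of an intron of 4902 bases. Each of the 3 reads has 1 genomic match in the deposited table, and no Mir153 hairpin is annotated in Ptprn, the related gene on chromosome 1 (chr1:75247027-75264502). In this annotation the host gene is thus Ptprn2 alone, and its messenger RNA was not measured here.

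The miR-153-3p read is identical to its RefSeq entry, at chr12:117250860-117250881. Both miR-153-5p reads start 1 base downstream of the RefSeq entry, at chr12:117250822, so their seed is CAUUUUU and not UCAUUUU. The reads of 22 and 21 nucleotides differ by 1 base at the 3′ end. In the minimum free energy fold of the hairpin (-30.8 kcal/mol), 18 bases of the 5p read of 22 nucleotides pair with the 3p read, and 16 bases separate the arms. No other listed mature miRNA shares the seed of either arm. Over bases 2 to 7, the RefSeq entries of miR-448-3p and miR-6335 share UGCAUA with miR-153-3p, and neither is listed. The table held 0 further sequences of the miR-153 precursor, 0 with the first 18 bases of a member and another 3′ end, and 0 at 1 substitution from a member. All listed sequences sum to at least 10 counts in oxidized methyltransferase RNA. A rarer form, or one lost on oxidation, may thus exist without being listed.

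The listed sequences summed to between 295094 and 438363 counts in oxidized control RNA and between 2446036 and 6641250 in the other groups. Every listed sequence has at least 2 counts in each oxidized methyltransferase library and 10 in their sum, so the listing was conditioned on that group, and these totals are not library depths. The miRNAs fixed as beta cell markers, such as miR-375-3p, were all 6 listed and held 162681 to 172589 CPM (counts scaled to the usual common library size, here by the listed total) in non-oxidized control RNA. The neuronal markers were also all 4 listed, at 1261 to 1640 CPM in sum, and miR-122-5p, a liver marker, held 27.6 to 85.9. No marker of muscle (3 sought), blood cells (4) or acinar cells (3) was listed.

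Before oxidation, both arms of miR-153 were present at low and nearly equal levels. In non-oxidized control RNA, miR-153-3p had 108 and 160 counts, the 22-nucleotide miR-153-5p had 92 and 108, and the 21-nucleotide miR-153-5p had 20 and 16. Together the 3 sequences held 220 and 284 counts. Levels are given below as CPM after edgeR's trimmed mean (TMM) scaling of the libraries. A read covers the whole RNA, so no length correction was made, but ligation can favour some sequences. On this scale the levels were 67.1 ± 16.3 for miR-153-3p, 50.2 ± 4.06 for the longer miR-153-5p and 9.08 ± 1.72 for the shorter (SD, n = 2 each). Over the most abundant sequence of each of 177 mature miRNAs, miR-153-3p ranked 121 and miR-153-5p ranked 129.

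The neighbours in that order could not be told apart from miR-153-3p. The next higher were miR-743a-3p (71.6 ± 28.3 CPM) and miR-30c-5p (75.4 ± 34.5), and the next lower were miR-195a-5p (66.5 ± 7.84) and miR-32-3p (64.8 ± 13.1; SD, n = 2 each). The range of each of these 4 overlapped that of miR-153-3p. miR-153-3p itself did not overlap the longer miR-153-5p, with 55.6 and 78.6 against 47.3 and 53.1 CPM. The higher arm was not the same in every library, as the counts of non-oxidized methyltransferase RNA show.

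**Figure D1:**
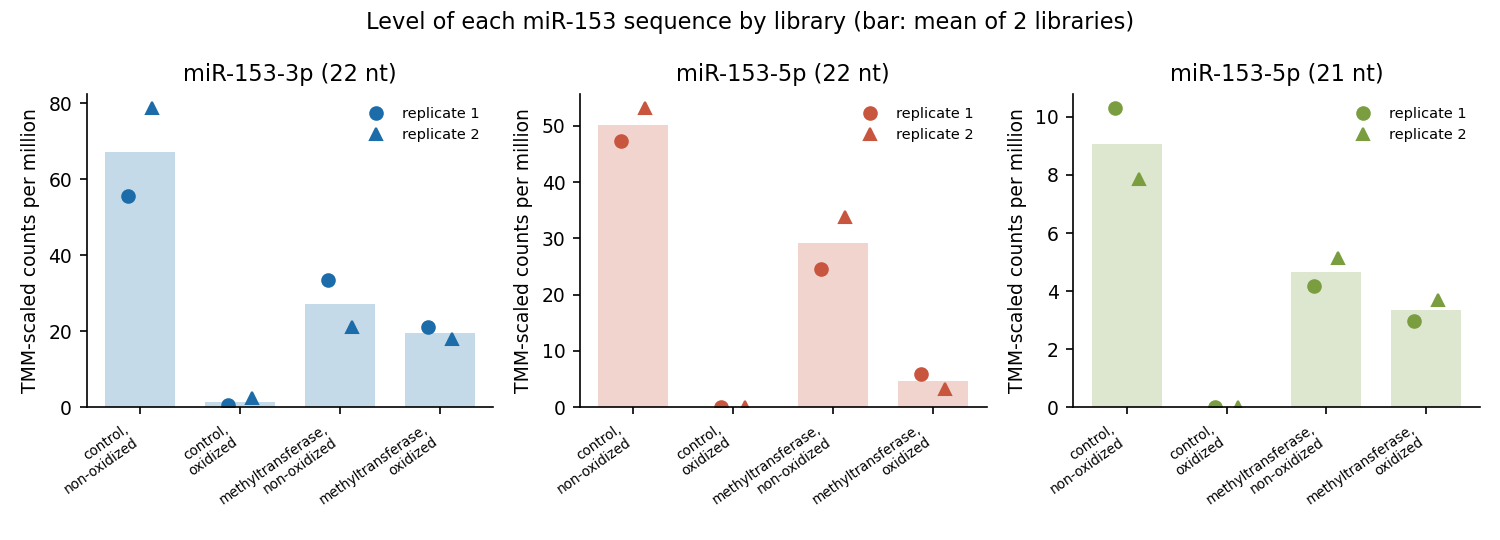
TMM-scaled CPM of each miR-153 sequence (y axes from 0, a scale per panel) in the 4 groups of 2 libraries (x axis); symbols are libraries and bars are means of 2. In oxidized control RNA both miR-153-5p sequences sit at 0 and miR-153-3p at 0.649 and 2.35, while oxidized methyltransferase RNA keeps 21.2 and 18.1 of miR-153-3p.

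With the methyltransferase plasmid and no oxidation, miR-153 values lay below those with the control plasmid, but no difference passed the test. The question is whether the plasmid itself went with another miRNA level. miR-153-3p had 64 and 45 counts, the longer miR-153-5p 47 and 72, and the shorter 8 and 11. All 3 sequences were lower in both methyltransferase libraries than in both control libraries on the TMM scale. The share of all sequences with the same order was not determined. The log2 fold changes were -1.30 ± 0.52 (SE) for miR-153-3p, -0.78 ± 0.49 for the longer miR-153-5p and -0.95 ± 0.67 for the shorter. Their edgeR adjusted p-values, over 9851 sequences tested, were 0.509, 0.70 and 0.743. No sequence of the table was called in this comparison by edgeR (0% higher and 0% lower; 392 positive and 466 negative values had a raw p below 0.05), while the DESeq2 Wald test called 38 higher and 85 lower. The median over the 177 mature miRNAs was -0.76 (quartiles -1.31 and -0.47), so most of them had lower values too. Marker levels differed between these groups too, in CPM of the listed total. The beta cell markers held 113005 to 124880 with the methyltransferase against 162681 to 172589, and the neuronal markers 850 to 1253 against 1261 to 1640. miR-122-5p, the liver marker, held 131 to 243 against 27.6 to 85.9. The part of these shifts in the values of miR-153 was not tested.

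Oxidation of control RNA removed nearly all miR-153 reads. This comparison gives the background left without the methyltransferase. miR-153-3p fell from 108 and 160 counts to 2 and 5. Both miR-153-5p sequences fell to 0 counts in both libraries, which allows a share of listed counts of up to 0.000684% in the first library and 0.00102% in the second (3 counts of the total, counting error only). In log2 terms miR-153-3p fell by 5.52 ± 0.67 (SE, edgeR adjusted p 2.43e-05). Against a floor of 3 counts per library, the longer miR-153-5p was at least 42.1-fold lower and the shorter at least 7.62-fold lower (edgeR adjusted p 7.91e-06 and 0.000279). Such bounds, here and below, take the other groups at their observed means and leave out their counting error and spread. All 3 members were called lower, beside 46.4% of all sequences tested (18.4% were called higher; with total counts 23.7% and 52.8%).

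The few counts make the size of this loss uncertain. Without the first oxidized control library the value of miR-153-3p was -4.84, and without the second -6.59. Scaled by the total of listed counts instead of TMM, the value of miR-153-3p was -1.13 and was no longer called (edgeR adjusted p 0.159). Fitted among mature miRNAs alone it turned to 0.53. Over all alternatives its adjusted p ran from 3.90e-12 (DESeq2) to 0.443 (edgeR). With total counts the longer miR-153-5p was at least 1.96-fold lower, and no bound holds for the shorter, since 3 counts of the oxidized control libraries (8.50 CPM) exceed its 3.06 in non-oxidized control RNA. The shorter lost its call with total counts (edgeR adjusted p 0.0554, in a range from 6.34e-05 by DESeq2 to 0.301 by edgeR).

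Most mature miRNAs had no read in oxidized control RNA. Of the 177 mature miRNAs, 121 had 0 counts in both oxidized control libraries, among them miR-153-5p, and 56 had at least 1. miR-153-3p ranked 28 in oxidized control RNA, against 121 before oxidation. Its neighbour miR-30c-5p, with 99 and 203 counts before oxidation, had 0 and 0 after it. The difference in rank rests on 7 counts and was not tested.

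With the methyltransferase, oxidized RNA kept reads of both arms, and most of them were miR-153-3p. This is the central comparison of the study, on which RNAs were protected. As given above, all listed sequences have at least 2 counts in each oxidized methyltransferase library and 10 in their sum. That the members kept reads there was thus fixed by the listing. The calls below are of sequences selected through that group. miR-153-3p had 57 and 39 counts in oxidized methyltransferase RNA against 2 and 5 in oxidized control RNA. The longer miR-153-5p had 16 and 7 against 0 and 0, and the shorter 8 and 8 against 0 and 0. For none of the 3 did the libraries of the groups overlap in raw counts, but the listed totals differed between these groups as well. The share of all sequences without such overlap was not determined. In CPM of the listed total, miR-153-3p overlapped (4.56 and 16.9 in oxidized control against 18.4 and 15.9 in oxidized methyltransferase RNA).

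miR-153-3p was higher by a log2 value of 3.75 ± 0.66 (SE, edgeR adjusted p 0.000548), or 13.5-fold. Without the first oxidized control library this was 3.02 and without the second 4.77. By its mean, the longer miR-153-5p was at least 3.85-fold higher than a floor of 3 counts per library, and the shorter at least 2.80-fold (edgeR adjusted p 0.000677 and 0.00241). The fitted log2 value of the longer was 6.41, which depends on the prior count, and was 7.01 without the second oxidized methyltransferase library. All 3 members were called higher, as were 169 of the 177 mature miRNAs and 42.3% of all sequences tested. Of all sequences, 3.92% were called lower, and with total counts 27.8% were higher and 48.7% lower.

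The call for miR-153-3p depended on the scaling. With total counts its log2 value was 0.77 and not called (edgeR adjusted p 0.318), and among mature miRNAs alone it was -0.15. Over all alternatives the adjusted p ran from 8.44e-06 (DESeq2) to 0.839 (edgeR). The median of all sequences tested moved from 0.82 with TMM to -2.17 with total counts. Both scalings move all sequences of a library alike, so the distance of miR-153-3p from that median was 2.94 with TMM and 2.95 with total counts. In the fit of mature miRNAs alone it lay at -6.65 relative to their median. By the TMM fit it ranked 166 from the highest of the 177 mature miRNAs. In CPM of the listed total, miR-153-3p had 4.56 and 16.9 in oxidized control RNA and 18.4 and 15.9 in oxidized methyltransferase RNA, and these ranges overlap. With total counts no bound holds for miR-153-5p, since 3 counts of oxidized control RNA (8.50 CPM) exceed the 4.01 and 2.93 of the 2 sequences in oxidized methyltransferase RNA. With total counts the shorter lost its call (edgeR adjusted p 0.0603, in a range from 0.00128 to 0.194), and among mature miRNAs alone the longer did too (0.127, in a range from 0.000111 to 0.127).

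**Figure D2:**
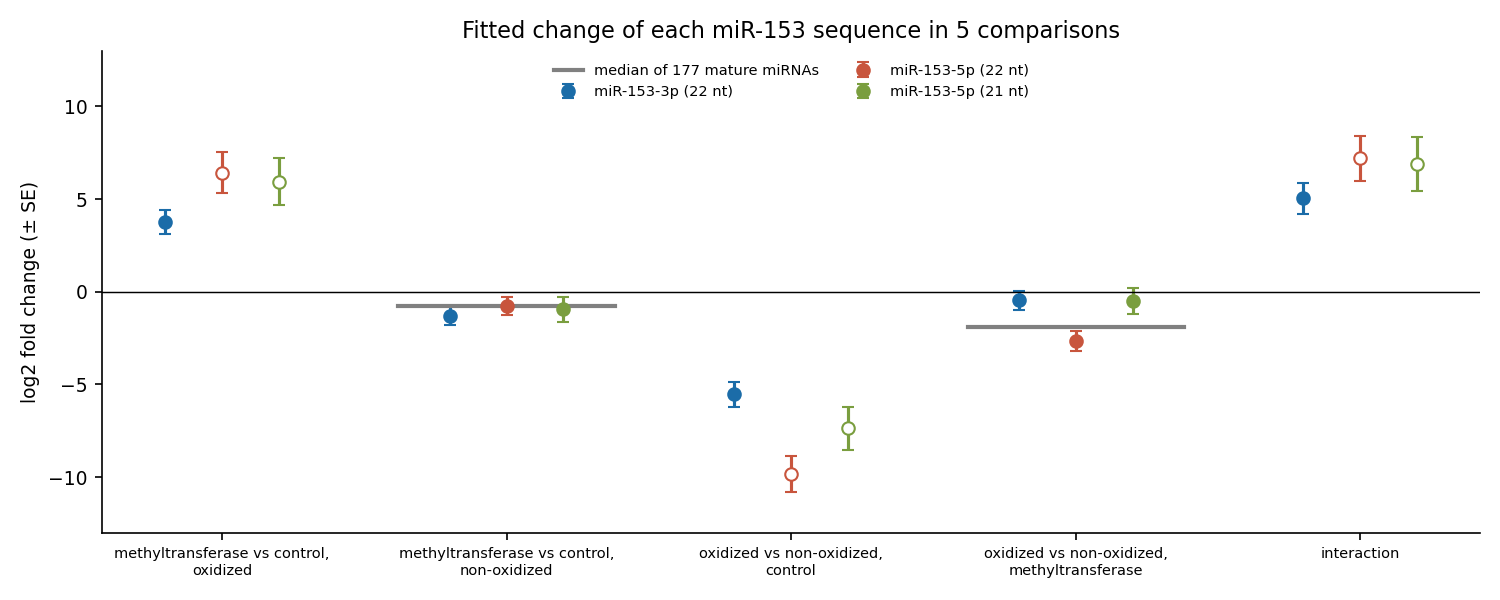
Log2 fold change (y axis, bars are ± 1 SE) of the 3 miR-153 sequences in the 5 comparisons (x axis) under TMM scaling; open symbols are fits against oxidized control RNA at 0 counts, which depend on the prior count, and grey lines are medians of 177 mature miRNAs where no such fit enters. After oxidation with the methyltransferase, miR-153-3p lies at -0.47 and the longer miR-153-5p at -2.64.

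Within methyltransferase RNA, the longer miR-153-5p fell with oxidation, while the values of miR-153-3p before and after it overlapped. This comparison asks how much of each RNA was kept. miR-153-3p had 64 and 45 counts before oxidation and 57 and 39 after it, and the TMM-scaled values (33.5 and 21.1, then 21.2 and 18.1 CPM) overlapped. Its log2 fold change was -0.47 ± 0.52 (SE, edgeR adjusted p 0.610). The sign of this value turned with total counts (0.37), the upper quartile (0.31) and mature miRNAs alone (0.99).

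The longer miR-153-5p went from 47 and 72 counts to 16 and 7, or from 24.6 and 33.7 to 5.94 and 3.24 CPM, with no overlap. It fell by 2.64 ± 0.55 in log2 terms (SE, edgeR adjusted p 0.00892), that is 6.22-fold. It was the 1 of the 3 members called lower, beside 11.2% of all sequences tested (1.77% were called higher; with total counts 6.40% and 10.2%). The call was lost without the second oxidized methyltransferase library (-2.11, edgeR adjusted p 0.0846), with total counts (-1.76, 0.0596) and among mature miRNAs alone (-1.19, 0.0763); over all alternatives the edgeR and DESeq2 adjusted p ran from 0.00241 to 0.0846. The shorter miR-153-5p, with 8 and 11 counts before and 8 and 8 after oxidation, had a value of -0.48 ± 0.69 (SE, edgeR adjusted p 0.706). At these counts a change of that size was not detectable.

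Among the 177 mature miRNAs, the median of this value was -1.90 (quartiles -3.04 and -0.87), with 0 called higher and 93 lower. miR-153-3p ranked 31 from the highest and the longer miR-153-5p ranked 121. A set of 41 mature miRNAs lay within 2-fold of miR-153-3p in level in non-oxidized methyltransferase RNA, the longer miR-153-5p among them. Of these, 6 lay above miR-153-3p and 11 lay below the longer miR-153-5p. All were listed through their counts in oxidized methyltransferase RNA, so miRNAs with larger losses could be missing from these medians, calls and ranks. The same limit holds for the comparisons with other miRNAs below. In levels, miR-153-3p moved from rank 130 to rank 87 and miR-153-5p from rank 128 to rank 143 with oxidation.

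**Figure D3:**
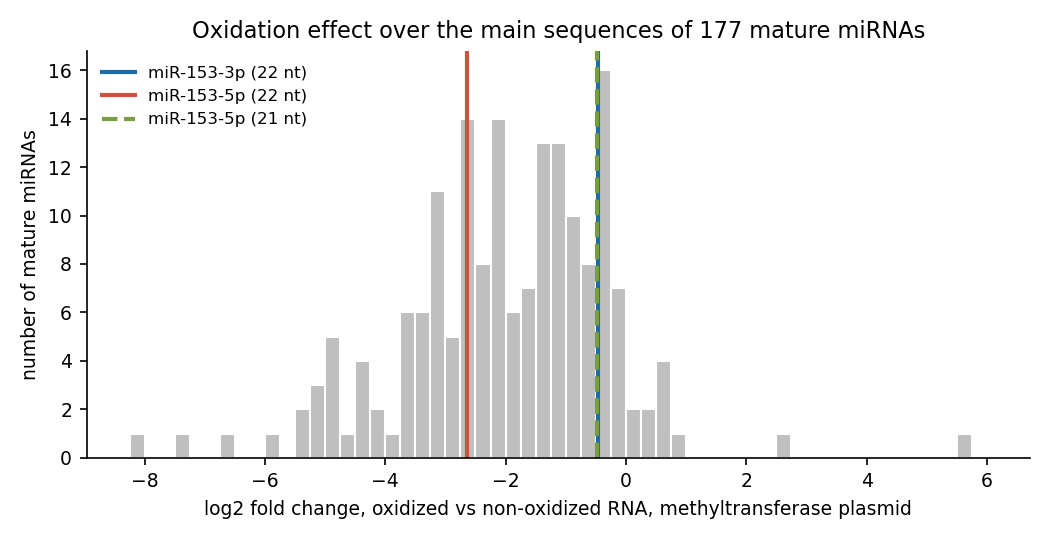
Number of mature miRNAs (y axis, 177 in all, most abundant sequence of each) by log2 fold change of oxidized against non-oxidized methyltransferase RNA (x axis, bins of 0.25); vertical lines mark the miR-153 sequences. miR-153-3p (-0.47) and the 21-nucleotide miR-153-5p (-0.48) lie to the right of the median of -1.90 and the 22-nucleotide miR-153-5p (-2.64) to its left.

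The interaction compares the effect of oxidation between the plasmids. Its calls too are of sequences selected through their counts in oxidized methyltransferase RNA. It was 5.05 ± 0.84 in log2 terms for miR-153-3p (SE, edgeR adjusted p 0.000482), and 4.34 or 6.09 without the first or second oxidized control library. For miR-153-5p, by the means of the other groups, it was at least 6.64-fold for the longer and 5.45-fold for the shorter sequence against the floor (edgeR adjusted p 0.000817 and 0.00277). All 3 members were called higher, beside 169 of the 177 mature miRNAs and 39.6% of all sequences tested. Of all sequences, 3.0% were called lower, and with total counts 20.2% were higher and 41.7% lower. With total counts the value of miR-153-3p was 1.5 and not called (edgeR adjusted p 0.158), and no bound holds for miR-153-5p. Over all alternatives the adjusted p of miR-153-3p ran from 1.24e-06 (DESeq2) to 0.592 (edgeR). The shorter miR-153-5p lost its interaction call with total counts (edgeR adjusted p 0.0636) and among mature miRNAs alone (0.183), in a range from 0.00118 to 0.183. The longer lost it among mature miRNAs alone (edgeR adjusted p 0.124, in a range from 0.000145 by DESeq2 to 0.124 by edgeR).

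miR-153-5p had its smallest measured shares of miR-153 counts in oxidized methyltransferase RNA, leaving aside oxidized control RNA with its 7 counts. miR-153-5p made up 50.9% and 43.7% of miR-153 counts in RNA of the control plasmid before oxidation (112 of 220 and 124 of 284 counts). In non-oxidized methyltransferase RNA it made up 46.2% and 64.8% (55 of 119 and 83 of 128). In oxidized methyltransferase RNA it made up 29.6% and 27.8% (24 of 81 and 15 of 54), with 95% Clopper-Pearson intervals of 20.0% to 40.8% and 16.5% to 41.6%. Both of these lay below all 4 non-oxidized libraries. The means were 28.7% ± 1.31 after and 55.5% ± 13.2 before oxidation (SD, n = 2 each). An exact two-sided permutation test of these libraries gave p = 0.333, the smallest that 2 against 2 allow. In oxidized control RNA 0 of 2 and 0 of 5 counts were miR-153-5p, with upper limits of 84.2% and 52.2%, so no share can be read there. These intervals cover counting error only, and the shares do not depend on the scaling of the libraries. The listing was conditioned on oxidized methyltransferase RNA, so a form of either arm lost on oxidation would be missing from these shares.

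Within miR-153-5p, the share of the shorter form was higher in both oxidized methyltransferase libraries than in any non-oxidized one. The 21-nucleotide sequence made up 17.9% and 12.9% of miR-153-5p counts in non-oxidized RNA of the control plasmid and 14.5% and 13.3% in that of the methyltransferase plasmid. It made up 33.3% and 53.3% in oxidized methyltransferase RNA (8 of 24 and 8 of 15 counts). The 95% Clopper-Pearson intervals of these, 15.6% to 55.3% and 26.6% to 78.7%, are wide, and each overlaps at least 1 interval from before oxidation. The means were 43.3% ± 14.1 after and 13.9% ± 0.914 before oxidation (SD, n = 2 each), and the exact two-sided permutation p was again 0.333. Both sequences share the 5′ end, the seed and the locus and are not independent of each other. Both were listed through their counts in oxidized methyltransferase RNA. A miR-153-5p form lost on oxidation would be missing from this share.

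**Figure D4:**
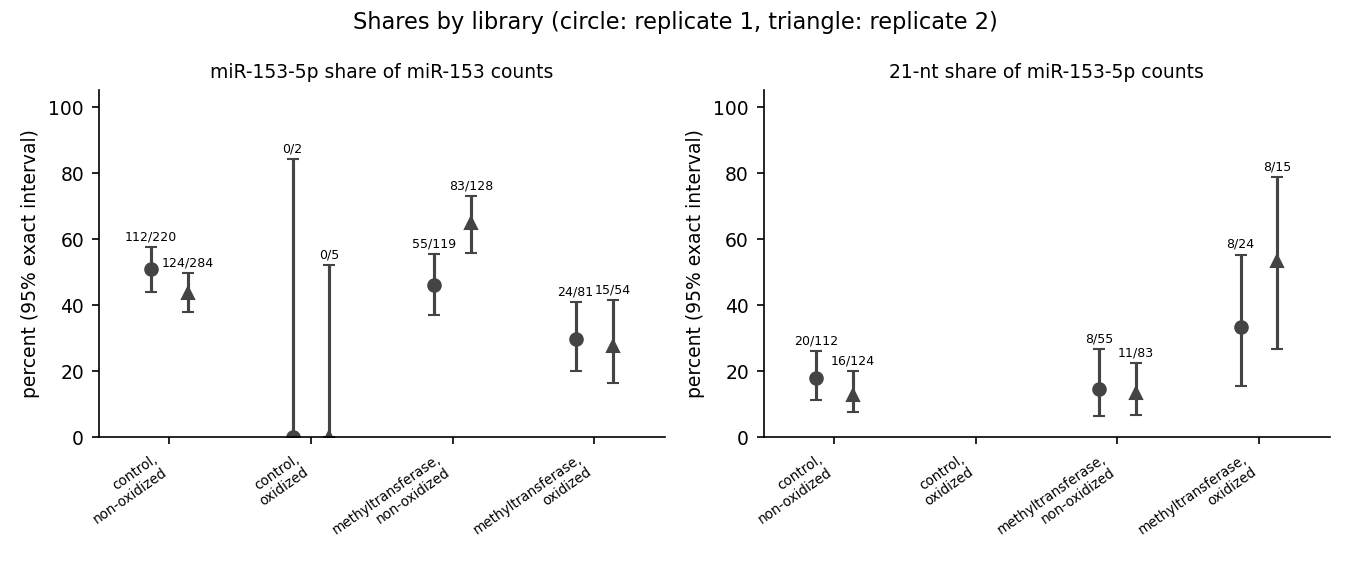
Left, miR-153-5p as a percentage of miR-153 counts; right, the 21-nucleotide sequence as a percentage of miR-153-5p counts, in each library (x axis, 2 per group), with 95% exact intervals and the counts above each point. The oxidized methyltransferase libraries (29.6% and 27.8%) lie below every non-oxidized library on the left and above every one on the right (33.3% and 53.3%).

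Among 25 hairpins with both arms tested, miR-153 had the most even arms in non-oxidized control RNA: miR-153-5p was lower than miR-153-3p by a log2 ratio of -0.42, while the median size of this ratio was 3.16. The oxidation value with the methyltransferase was lower for miR-153-5p than for miR-153-3p by 2.17 (-2.17), which ranked 6 from the lowest of the 25. In 15 of the 25 the 5p arm had the lower value, with a median difference of -0.66 and quartiles of -2.0 and 0.93. A gap of this size between arms was thus present in several hairpins and in both directions. Over 307 pairs of mature sequences that differ by 1 base at the 3′ end, the shorter minus the longer had a median of 0.03 (quartiles -0.99 and 0.92). The pair of miR-153-5p, at 2.15, ranked 47 from the highest. Both comparisons are descriptions with no test, over sequences listed through their counts in oxidized methyltransferase RNA.

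**Figure D5:**
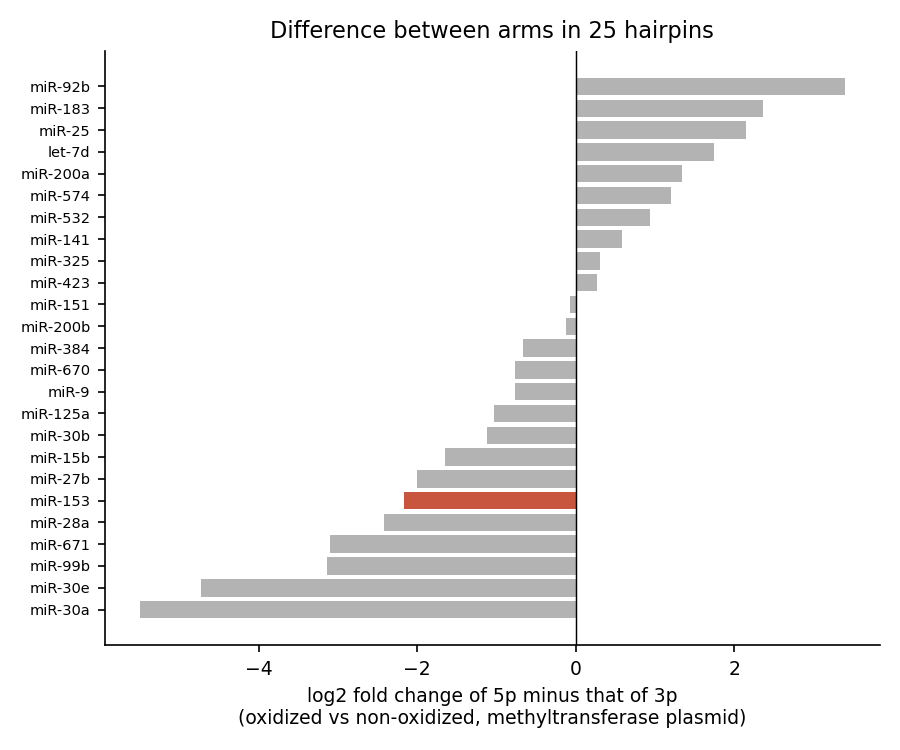
Difference between the arms in log2 fold change of oxidized against non-oxidized methyltransferase RNA (x axis, 5p minus 3p; TMM scaling) for 25 hairpins with both arms tested (y axis); bars start at 0 and miR-153 is in red. miR-153 lies at -2.17, and 5 hairpins lie lower.

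Other miRNAs processed from introns or transcripts of host genes were taken from a list of 48 names, of which 30 were tested. All 30 were called higher in oxidized methyltransferase than in oxidized control RNA, beside 169 of the 177 mature miRNAs and 42.3% of all sequences tested. In methyltransferase RNA, oxidation lowered 20 of the 30 and raised 0, with a median log2 value of -2.10. Over the mature miRNAs 93 of 177 were lowered (median -1.90), and over all sequences tested 11.2% were lowered and 1.77% raised (median 0.09). Of the 30, 2 lay above miR-153-3p (-0.47), and 27 exceeded it in level in non-oxidized control RNA. Their values ran from -5.16 ± 0.68 for miR-30e-5p to -0.29 ± 0.53 for miR-151-3p. The most abundant, miR-7a-5p of the Hnrnpk host gene among others, had 97237 and 143782 counts before and 57729 and 30034 after oxidation (-1.74 ± 0.40; SE). let-7f-5p, the next in level, was at -1.09 ± 0.36 and not called (edgeR adjusted p 0.0724).

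Of 41 miRNAs listed as known from beta cells or neuroendocrine cells, 26 were tested, and all 26 were called higher in the central comparison, where 169 of the 177 mature miRNAs and 42.3% of all sequences were. Oxidation with the methyltransferase lowered 20 of them and raised 0 (median -2.76), beside the same 93 of 177 mature miRNAs and 11.2% of all sequences. Of the 26, 2 lay above miR-153-3p, and all 26 exceeded it in level in non-oxidized control RNA. The values ran from -5.88 ± 0.44 (SE) for miR-182-5p to -0.10 ± 0.69 for miR-200c-3p, and miR-375-3p, the most abundant of the list, was at -1.39 ± 0.45 and not called (edgeR adjusted p 0.0676).

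The miRNAs whose pattern over the 8 libraries was nearest to that of miR-153-3p were found by Euclidean distance between log2 CPM, each centred on its mean, among 126 mature miRNAs with a mean of at least 50 counts. They were miR-325-5p (distance 2.56), miR-151-3p (2.62), miR-30c-5p (2.74), miR-184-3p (2.88) and miR-125a-3p (3.06), beside a median distance of 5.87. The longer miR-153-5p, at 3.0, would rank 5. miR-125a-3p and miR-184-3p also had a few counts in oxidized control RNA (1 and 2, and 0 and 4), as miR-153-3p did. miR-325-5p, miR-151-3p and miR-30c-5p had 0 there and between 23 and 50 counts in each oxidized methyltransferase library.

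In the authors' deposited table, miR-153-3p was 16.7-fold higher in oxidized methyltransferase than in oxidized control RNA (adjusted p 8.44e-06). The authors' deposited table gives 78.4-fold for the longer and 54.0-fold for the shorter miR-153-5p (adjusted p 0.000397 and 0.00317), values that rest on 0 counts in oxidized control RNA. For oxidation with the methyltransferase, the authors' deposited table gives the longer miR-153-5p as 5.90-fold lower after oxidation (adjusted p 0.00241). It gives the other members as 1.36-fold and 1.38-fold lower with no call. The adjusted p-values quoted here equal, to the digits given, those of the DESeq2 Wald test among the alternatives, so they are not a separate result. With total counts the call for miR-153-3p between plasmids was lost, as given above.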

How the data were processed

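Small RNA libraries of the 8 samples were prepared, per the labels' protocols, with the QIAseq miRNA kit and 5 ng of RNA. The aligner, genome build, trimming and any use of molecular identifiers are not given in the sources used here. The authors deposited 1 table of 12608 lines with raw counts per sequence and library, which were used as deposited after lines of the same sequence were merged to 11568 distinct sequences of 16 to 80 nucleotides. The authors' signed fold changes (a score below or above 0) and adjusted p-values were taken from the same deposited table and only quoted. 16 further per-sample columns were not used.

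The main test was edgeR 4.0.16 (R 4.3.3): TMM scaling, the default filter on low counts, a quasi-likelihood model of the 4 groups over all 8 libraries, and Benjamini-Hochberg adjustment over the 9851 sequences that passed, with a threshold of 0.05. All 3 miR-153 sequences passed that filter. SE is the log2 fold change over the square root of the F statistic. DESeq2 1.42.0 gave an alternative test. Shares carry exact (Clopper-Pearson) intervals at 95%, and groups at 0 a floor of 3 counts per library. Mature miRNAs are represented by their most abundant sequence. The hairpin was folded with RNAfold 2.7.2, and permutation tests used scipy 1.17.1. RefSeq sequences (GRCm38.p6) matched 156 of 179 listed mature names. The alternatives were other scalings (total counts, upper quartile, DESeq2 size factors), stricter or no filters, mature miRNAs alone, counts summed by name, only the libraries compared, a replicate block and each library left out.

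The genes named beside miR-153 are its seed sharers, the 2 mature miRNAs just above and the 2 just below it in level, the 5 nearest in pattern, and the 2 most abundant, the highest and the lowest of each list. The members and lists were chosen with earlier results of these data known.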

Additional observations from a re-analysis of the deposited data

Results flagged for a closer look

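All 3 miR-153 sequences were marked because a test of the difference itself found oxidation to differ in effect with the plasmid, the interaction of the edgeR model. The same call was made for 39.6% of all sequences tested and for 169 of the 177 mature miRNAs. With total counts the calls of miR-153-3p and the 21-nucleotide miR-153-5p were lost, and among mature miRNAs alone those of all 3. The log2 interaction was 5.05 for miR-153-3p, with 108 and 160 counts falling to 2 and 5 with the control plasmid and 64 and 45 against 57 and 39 with the methyltransferase. It was 7.19 for the 22-nucleotide and 6.88 for the 21-nucleotide miR-153-5p, fitted values set in part by the prior count, as both had 0 counts in oxidized control RNA.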

How the results depend on the processing

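Of 251 alternative values for the fitted results of miR-153, 228 kept their direction and their side of the threshold, 15 lost a call and 8 changed sign. Every lost call or changed sign came from total-count or upper-quartile scaling, from the fit of mature miRNAs alone, or from 1 library left out, and the cause was not tested. For the plasmids in oxidized RNA, total counts gave 0.77 for miR-153-3p and 6.31 for the 21-nucleotide miR-153-5p, and mature miRNAs alone gave -0.15, 7.31 and 6.84 for miR-153-3p and the miR-153-5p of 22 and 21 nucleotides. For oxidation with the control plasmid, total counts gave -1.13 for miR-153-3p and -6.37 for the 21-nucleotide miR-153-5p, and mature miRNAs alone 0.53 and -6.16. For oxidation with the methyltransferase, total counts gave 0.37 for miR-153-3p, -1.76 for the 22-nucleotide and 0.39 for the 21-nucleotide miR-153-5p. The upper quartile gave 0.31 and 0.28 for miR-153-3p and the 21-nucleotide miR-153-5p, and mature miRNAs alone 0.99, -1.19 and 0.96 for the 3 in the same order. Leaving out 1 library gave -3.17 to -2.11 for the 22-nucleotide miR-153-5p there, and the call was lost without the second oxidized methyltransferase library. For the interaction, total counts gave 1.5 for miR-153-3p and 6.76 for the 21-nucleotide miR-153-5p, and mature miRNAs alone 0.46, 7.41 and 7.11 for the 3. Without the second oxidized methyltransferase library the interaction of the 22-nucleotide miR-153-5p was 7.78.

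The labels do not say whether replicate numbers pair the samples. Deviations of same-numbered libraries correlated at -0.03 to 0.33 over the 6 pairs of groups. The highest value, 0.33, was between non-oxidized control and non-oxidized methyltransferase RNA. These values cannot decide on pairing, since no libraries of known shared source were available for comparison. With the replicate block the value of miR-153-3p between plasmids in oxidized RNA was 3.77, and no call of a miR-153 sequence changed. The rank of miR-153-3p in non-oxidized control RNA was 125 with counts summed by name and 124 without the second library, where miR-153-5p ranked 131. No isoform was found to add among the listed sequences.

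Over all sequences, the share called higher between plasmids in oxidized RNA (42.3%) was 27.8% with total counts, and the share lower (3.92%) was 48.7%, 19.0% with the upper quartile, 1.78% with DESeq2 size factors and 0.994% with the DESeq2 test. For oxidation with the control plasmid the share higher (18.4%) was 52.8% with total counts and 39.6% by upper quartile. For oxidation with the methyltransferase the share lower (11.2%) was 6.40%, 7.11%, and 6.78% and 6.72% without either oxidized library, and the share higher (1.77%) was 10.2% and 8.76%. For the interaction the share lower (3.0%) was 41.7% and 11.2%. With mature miRNAs alone (609 tested), 230 were higher and 85 lower between plasmids in oxidized RNA, and with only the libraries compared the share higher was 31.6%.

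The 21-nucleotide miR-153-5p had no value with at least 10 counts in at least 4 libraries or summed by hit, none with only the libraries compared in 3 comparisons, and no DESeq2 adjusted p between plasmids in non-oxidized RNA or for oxidation with the methyltransferase; the 22-nucleotide had none with only the libraries compared in oxidized RNA. Counts of 0 to 20 for the 21-nucleotide sequence, and of 0 to 5 for all members in oxidized control RNA, limit every fold there.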

Other observations

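The miRNAs nearest in pattern to the 22-nucleotide miR-153-5p were other than those nearest to miR-153-3p: miR-374b-5p (distance 1.66), miR-1224-5p (1.67), miR-378a-3p (1.70), miR-301a-3p (1.72) and miR-28a-5p (1.78). In oxidized control RNA these 5 had 0 counts, as miR-153-5p did, and they had between 13 and 34 counts in each oxidized methyltransferase library. In level before oxidation, the neighbours of the 22-nucleotide miR-153-5p were miR-151-3p (58.9 ± 22.2 TMM-scaled CPM) above and miR-30c-2-3p (48.8 ± 0.158; SD, n = 2 each) below. The ranges of both overlapped that of miR-153-5p.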
